A study of Mus musculus with 6 samples.

Results

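The guanylate-binding proteins (GBPs) and the immunity-related GTPases (IRGs) are enzymes that macrophages make when interferon gamma reaches them. They gather on the membranes that enclose microbes, damage those membranes and help inflammasomes sense what leaks out. Interferon gamma acts through its receptor and the JAK kinases, and many of the promoters it switches on, among them that of Irf1, hold GAS elements. The IRF1 protein in turn binds ISRE-type elements in promoters of GTPase genes. The genes described here are 4 GBP genes (Gbp2, Gbp3, Gbp4 and Gbp5), 3 IRG genes (Iigp1, Tgtp1 and Tgtp2) and Irf1. They were taken by symbol from a table of 714 listed genes, which held all 8.

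Messenger RNA of macrophages grown from mouse bone marrow (C57BL/6) was sequenced in 6 libraries, 3 wild type and 3 SENP8+/-, written Senp8+/- below. Senp8 encodes a protease of the ubiquitin-like protein NEDD8. The libraries named KO in the titles carry the genotype label of a heterozygote. The altered allele and the age and sex of the animals were not given in the sources used here. Both genotypes were grown from marrow for 6 days with GM-CSF at 10 ng/ml, a factor under which marrow gives macrophages and also dendritic-like cells. Both were then given streptavidin beads carrying biotinylated CD47, the ligand of the macrophage receptor SIRPα, and RNA was taken after 24 h. Every value below is from cells that met CD47, since libraries without beads were not analysed here.

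The table lists genes that the authors' test gave a p-value under 0.05 and a difference of at least 2-fold, so every gene in it was selected on the comparison of the genotypes. The 8 genes were also chosen with that comparison known. Their values are therefore a description, and no test of them is offered. Values are normalised counts, meaning each gene's reads over the size factor of its library, and means are given ± SD (n = 3 libraries per genotype). The libraries held 205957 to 491156 reads over the listed genes, and their full depth is unknown here. The labels do not say whether the 3 libraries of a genotype are from different animals or cultures, and the spread between them may be technical. Senp8 was not analysed here, and of 12 macrophage markers only C1qa and C1qc were listed, so neither the genotype nor the cell type could be checked against defining genes. With bulk RNA, fewer cells of a type and less RNA per cell cannot be told apart.

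The promoter stretches below are shown because 5 of the 6 genes with a RefSeq promoter window (GRCm38.p6, 250 bases before to 50 after the start) hold an ISRE-type match and the other, Irf1, holds a GAS-type match. Each stretch has 80 bases upstream of the RefSeq start, written 5′ to 3′ on the gene's own strand, with every match in capitals. For Gbp2, Gbp3, Gbp5 and Tgtp1 that start lies inside the gene position given below, so all or part of the stretch does too. Gbp3 and Irf1 have 2 windows each, with matches only in the first by position. The ISRE letters searched were GAAA, any 2 bases and GAAA, and the GAS letters TTC, any 3 bases and GAA, on both strands. Gbp4 and Iigp1 had no entry.
Gbp2, chr3:142620574-142620653, plus strand: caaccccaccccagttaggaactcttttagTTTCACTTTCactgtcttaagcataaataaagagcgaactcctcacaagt
Gbp3, chr3:142559964-142560043, plus strand: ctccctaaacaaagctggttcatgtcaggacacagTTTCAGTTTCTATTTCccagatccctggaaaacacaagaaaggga
Gbp5, chr3:142496739-142496818, plus strand: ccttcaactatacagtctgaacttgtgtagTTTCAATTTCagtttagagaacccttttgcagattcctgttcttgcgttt
Tgtp1, chr11:48992274-48992353, minus strand: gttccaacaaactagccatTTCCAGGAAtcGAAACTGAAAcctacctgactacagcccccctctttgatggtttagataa
Tgtp2, chr11:49064233-49064312, minus strand: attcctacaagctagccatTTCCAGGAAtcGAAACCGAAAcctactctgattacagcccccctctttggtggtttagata
Irf1, chr11:53769894-53769973, plus strand: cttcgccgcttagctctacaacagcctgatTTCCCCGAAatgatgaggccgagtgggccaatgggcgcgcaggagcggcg

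In the 3 GBP promoters the ISRE letters lie on the opposite strand, and Gbp3 has 2 overlapping matches. In Tgtp1 and Tgtp2 a GAS match ends 2 bases before the ISRE match. Gbp5 has 2 GAS matches in its window outside the stretch shown. The GAS match of Irf1 begins 90 bases before the start. Over all 27025 genes with a window of this length, 3.99% hold the ISRE letters and 9.55% the GAS letters. Among the 492 listed genes with a window the shares are 8.94% and 10.6%. These are matches of letters, not measured binding.

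All 8 genes stood lower in Senp8+/- than in wild-type macrophages, and in each of them every Senp8+/- library lay below every wild-type library. The same was true of 70.6% of all listed genes, while 79.7% were lower in the authors' deposited table and 89.4% had groups that did not overlap in either direction. These shares follow to a large extent from the selection. Gbp2, the most abundant, fell 3.58-fold, Irf1 fell 2.47-fold and Gbp4 fell 13.6-fold. The normalised counts of the 8 genes together came to 17209 ± 2378 in wild type and 5605 ± 1546 in Senp8+/-, of which Gbp2 made up 53.8% and 46.1%. "Fell" and "called" are used where the authors' deposited table gives an adjusted p under 0.05, which held for 8 of the 8 genes, against 41.3% of the listed genes (33.9% called and lower) and 2.01% of the 14694 genes in the authors' correction. Since that contrast chose the genes, nothing is read from the count. Limma, fitted to the listed genes, called 5 of the 8 (not Gbp3, Gbp5 or Tgtp1) and 24.6% of listed genes. With 1 library left out it called from 0 of the 8, without wild-type replicate 1, where it called 1.54% of listed genes and all 8 had an unadjusted p under 0.05, to 6, without wild-type replicate 3, where it called 25.4%. Without Senp8+/- replicate 2 it called 1 of the 8 and 5.18% of listed genes.

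Genes of the Y chromosome moved with the same comparison. The 4 that were listed all rose in Senp8+/-, with no overlap between genotypes. Ddx3y stood at 245, 307 and 433 normalised counts in wild-type replicates 1, 2 and 3 and at 816, 1050.3 and 865 in the Senp8+/- replicates, 2.77-fold higher. Eif2s3y stood 2.34-fold and Uty 2.07-fold higher, and Gm47283 had 0, 1 and 2 reads in wild type against 55, 57 and 45 in Senp8+/-. These genes were looked at after their values were seen, and the X-linked gene Xist was not among the listed genes. The part of sex in the GTPase and Irf1 levels was not tested, and with the sex of the animals not given it cannot be told apart from genotype.

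**Figure D1:**
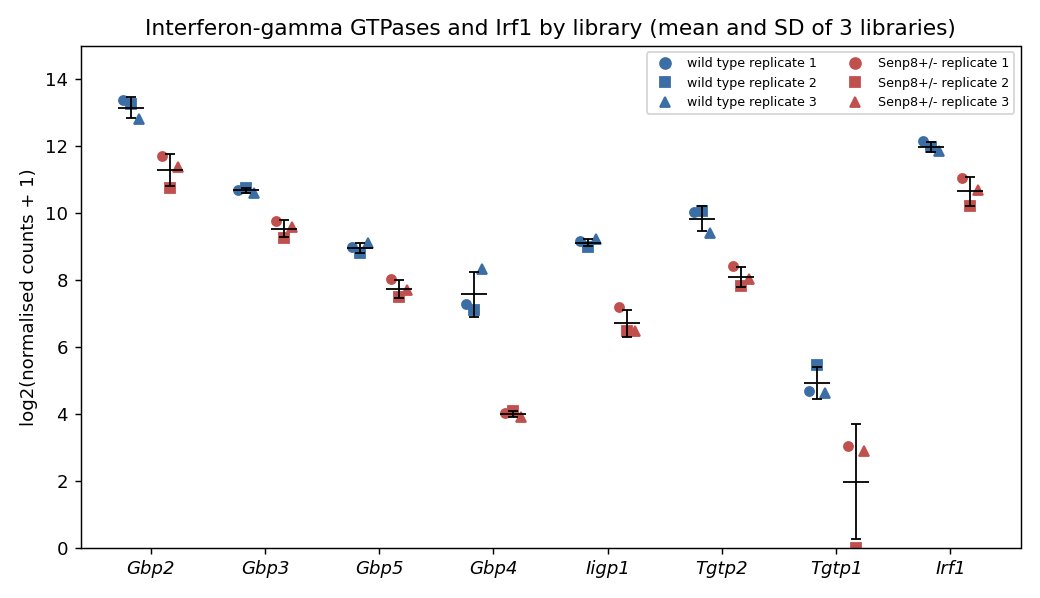
Each point is 1 library, as log2(normalised counts + 1), for the 8 genes, with bars for the mean and SD of 3 libraries per genotype. In every gene the Senp8+/- points lie below the wild-type points, and Senp8+/- replicate 2 is the lowest point in 7 of the 8 genes.

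Irf1 (ENSMUSG00000018899; chromosome 11, 53770014 to 53778374, plus strand, GRCm38) encodes the regulator of the group. It stood at 4529, 4020.1 and 3696 normalised counts in wild-type replicates 1, 2 and 3 and at 2131, 1178 and 1657 in the Senp8+/- replicates. The lowest wild-type library was 1.73 times the highest Senp8+/- library, the smallest gap of the 8 after Gbp5. Of all listed genes, 89.4% had groups that did not overlap. Senp8+/- replicate 2 was the lowest library for Irf1. Irf1 means were 4082 ± 420.0 and 1655 ± 476, and the difference on the log2(value + 1) scale was -1.34 ± 0.27 (SE, limma). Of its exon bases, 3.40% overlap the gene Gm17334 on the other strand, whose reads cannot be told apart unless strand was used in counting.

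Gbp2 (ENSMUSG00000028270; chromosome 3, 142620602 to 142638008, plus strand) encodes a GBP that is recruited to vacuoles holding microbes. Its wild-type values were 10762, 9817 and 7177 normalised counts and its Senp8+/- values 3356, 1741 and 2647. Both wild-type replicate 3 and Senp8+/- replicate 2 were low within their genotype, and a gap of 2.14-fold still parted the groups. The log2 difference was -1.87 ± 0.29 (SE, limma).

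Gbp3 (chromosome 3, 142560026 to 142573209) and Gbp5 (chromosome 3, 142493978 to 142522344), a GBP known to promote NLRP3 inflammasome assembly, had the smallest differences of the 8. Gbp3 stood at 1667, 1716 and 1560.4 normalised counts in wild type and at 876, 612 and 767 in Senp8+/-. Gbp5 stood at 511, 444 and 548 in wild type and at 258, 178 and 209 in Senp8+/-. The wild-type libraries of both genes were close together, with a coefficient of variation of 4.81% for Gbp3 and 10.5% for Gbp5, and the groups were apart by gaps of 1.78- and 1.72-fold. Gbp3 fell 2.19-fold and Gbp5 2.33-fold by the deposited call, which neither limma nor edgeR gave for either gene. Both turned to slightly higher, with log2 differences of 0.13 and 0.041, when the libraries were rescaled by the median of ratios over the listed genes. That rescaling, chosen after the data were seen, raised the median log2 difference of all listed genes by 1.21, and Irf1 then stood at -0.07. It shifts all genes of a library together, so here and below a turn of sign follows from a small fall. The listed genes were selected and mostly lie lower in Senp8+/-, so they cannot give a scaling. Nothing is read from such turns. In the authors' deposited table Gbp3 has the smallest log2 fold change of the 8, -1.13, just past the 2-fold limit for listing.

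Gbp4 (ENSMUSG00000079363; chromosome 5, 105115767 to 105139586, minus strand) had the largest fold change of the 8. It stood at 154, 136 and 323 normalised counts in wild type and at 15.4, 15.8 and 13.9 in Senp8+/-. Wild-type replicate 3 was more than 2 times as high as the other wild-type libraries, whereas the Senp8+/- libraries were almost equal, at 13 to 17 reads. Their SD of 0.9997 is below the counting error of so few reads. The exact Poisson 95% interval of the Senp8+/- level, from 45 reads in 3 libraries, was 11.0 to 20.2, which covers counting error only. Leaving out wild-type replicate 3 gave a 9.65-fold fall. The log2 difference was -3.57 ± 0.39 (SE, limma), and 15 of the 714 listed genes had a larger fall.

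Iigp1 (ENSMUSG00000054072; chromosome 18, 60376029 to 60392627, plus strand) encodes an IRG that loads onto the vacuole of Toxoplasma. Its wild-type values were 571, 508 and 593 normalised counts, and its Senp8+/- values were 144, 87.4 and 87.8. Within wild type the libraries differed little (coefficient of variation 7.96%), and Senp8+/- replicate 1 was the highest of its genotype. The lowest wild-type value was 3.52 times the highest Senp8+/- value, the widest gap of the 8 after Gbp4. Iigp1 fell 5.24-fold, with a log2 difference of -2.42 ± 0.31 (SE, limma).

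Tgtp1 and Tgtp2 encode close copies of another IRG effector, and their stretches above show how alike their promoters are around the matches. Tgtp2 (ENSMUSG00000078921; chromosome 11, 49057194 to 49064206, minus strand) stood at 1043, 1077 and 682 normalised counts in wild type and at 341, 226 and 260.3 in Senp8+/-. Tgtp1 (ENSMUSG00000078922; chromosome 11, 48985327 to 48994172, minus strand) stood at 24.8, 43.3 and 23.6 in wild type and at 7.21, 0 and 6.43 in Senp8+/-. The Tgtp1 values rest on 25 to 41 reads in wild type and 7, 0 and 6 reads in Senp8+/-, and the library with 0 reads allows a level of up to 2.79 normalised counts. Of the 100-base windows of the GENCODE M21 transcripts, 73.1% of those of Tgtp1 and 76.8% of those of Tgtp2 occur in transcripts of another gene, nearly all in each other. How reads that match both were counted was not given in the sources used here. The split between them is uncertain. Of the exon bases of Tgtp1, 6.96% also overlap Gm12185 on the same strand. Summed, the pair stood at 965 ± 225 in wild type and 280.2 ± 62.0 in Senp8+/-, a 3.44-fold fall, against 3.39-fold for Tgtp2 alone and 6.72-fold for Tgtp1. The other 6 genes share at most 1.64% of their windows with any other gene.

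The median log2 difference over the 8 genes was -1.81, with a range from -3.57 to -1.15, and over all listed genes it was -1.39. By this measure 5 of the 8 lay below the median of the listed genes, and Irf1, Gbp5 and Gbp3 lay above it. Gbp4, Tgtp1 and Iigp1 had the largest differences, Gbp3, Gbp5 and Irf1 the smallest, and Gbp2 and Tgtp2 stood between them. Ratios of genes within a library do not depend on the size factors. Gbp2 was 2.38, 2.44 and 1.94 times Irf1 in wild-type replicates 1, 2 and 3 and 1.57, 1.48 and 1.60 times Irf1 in the Senp8+/- replicates, so the ratio did not overlap between genotypes. Gbp2 was 22.2 to 72.1 times Gbp4 in wild type and 110.1 to 217 times in Senp8+/-. The ratio of Gbp5 to Gbp3, by contrast, overlapped, at 0.259 to 0.351 in wild type and 0.272 to 0.295 in Senp8+/-. How often ratios of other listed genes overlap was not computed, and the genes were selected on this comparison, so these ratios are a description.

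**Figure D2:**
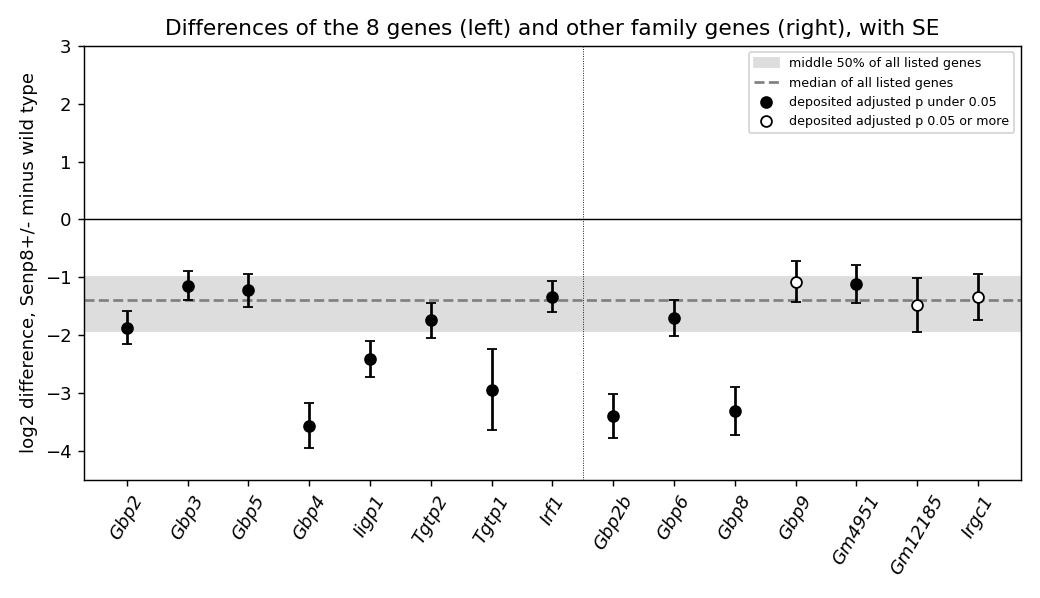
The vertical axis is the log2 difference, Senp8+/- minus wild type, on the log2(value + 1) scale with the limma SE. The 8 genes stand left of the dotted line and other listed GBP and IRG genes right of it, over a band for the middle 50% of all listed genes (-1.94 to -0.998). Gbp4, Iigp1, Tgtp1, Gbp2b and Gbp8 lie below the band and the others inside it.

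Levels of different genes were compared per kilobase of the deposited gene length. In wild type the order was Gbp2 (3677 ± 738 normalised counts per kb), Irf1 (1027 ± 106), Gbp3 (505 ± 24.3), Tgtp2 (318 ± 74.4), Iigp1 (179 ± 14.2), Gbp5 (75.5 ± 7.89), Gbp4 (27.3 ± 13.8) and Tgtp1 (9.53 ± 3.45). No neighbours in this order overlapped in their wild-type libraries. The places of Tgtp1 and Tgtp2 are uncertain, since 73.1% and 76.8% of their 100-base windows occur in other genes. How shared reads were counted was not given. In Senp8+/- the order was the same, from 1026 ± 322 for Gbp2 and 416 ± 120 for Irf1 down to 2.01 ± 0.133 for Gbp4 and 1.42 ± 1.23 for Tgtp1. There the libraries of Iigp1 (34.1 ± 10.4) overlapped those of Gbp5 (32.4 ± 6.13), and those of Gbp4 overlapped those of Tgtp1, so neither pair differed beyond its spread. The deposited length of Iigp1 is 3121 bases and its GENCODE exons span 5823 bases, and with the latter its Senp8+/- level of 18.3 per kb falls below that of Gbp5.

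Within a genotype the order of the libraries differed between genes. Among the Senp8+/- libraries, replicate 2 was the lowest and replicate 1 the highest in each gene except Gbp4, whereas replicate 2 was the lowest in 30.5% and replicate 1 the highest in 42.0% of all listed genes. Among the wild-type libraries, Gbp2, Gbp3, Tgtp1, Tgtp2 and Irf1 were lowest in replicate 3, as were 43.4% of listed genes. Gbp4, Gbp5 and Iigp1 were instead highest in that same library, as were 35.2% of listed genes. Deviations from the genotype mean in wild-type replicate 3 ran from -0.42 for Tgtp2 to 0.77 for Gbp4 on the log2 scale. Some ranks rest on the size factors. In Senp8+/- replicates 2 and 3, Iigp1 had 94 and 82 reads (87.4 and 87.8 normalised counts), and Tgtp2 had 243 reads in both. Tgtp1 had 27 reads in wild-type replicate 3, where it was lowest, and 25 in wild-type replicate 1. Gbp3 had 1683, 1625 and 1786 reads in wild-type replicates 1, 2 and 3, so by reads it was highest in replicate 3. Irf1 had 4573, 3808 and 4230 reads there, so by reads it was lowest in replicate 2. The wild-type order is therefore not read as a trait of these genes.

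**Figure D3:**
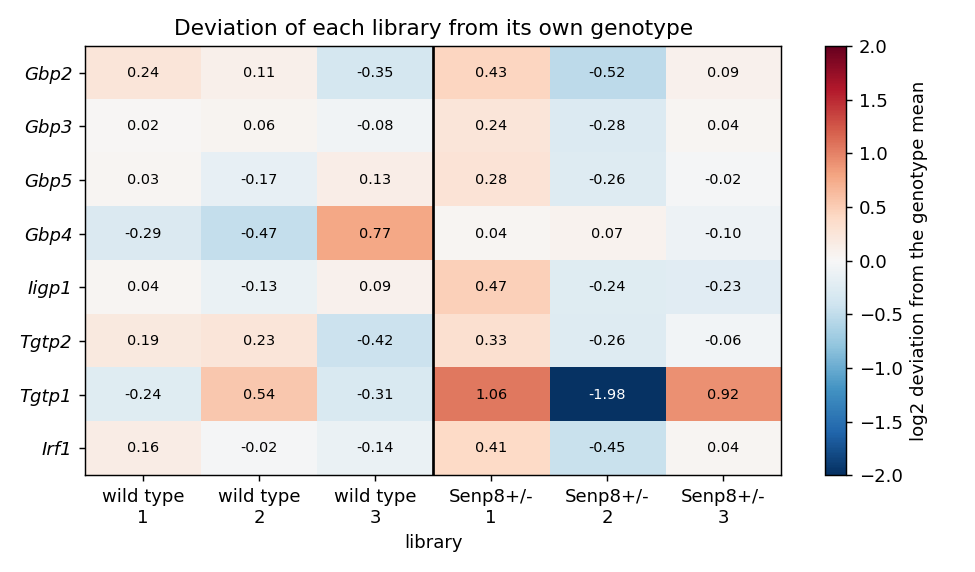
Rows are genes and columns libraries, and each cell gives the deviation of log2(normalised counts + 1) from the mean of its genotype. Senp8+/- replicate 2 is negative in 7 of 8 genes, and wild-type replicate 3 is positive for Gbp4, Gbp5 and Iigp1 and negative for the other 5.

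The GBP genes lie in 2 clusters. The cluster on chromosome 3 holds Gbp5, Gbp7, Gbp3, Gbp2b and Gbp2 in that order, and 4 of these 5 were listed. The cluster on chromosome 5 holds Gbp8, Gbp9, Gbp4, Gbp10, Gbp6 and Gbp11, and 4 of these 6 were listed. Counts of listed genes here and below stand against 714 listed genes for 14694 in the authors' correction. Of the 7 GBP genes outside the 8, 4 were listed, each lower in Senp8+/-, and 3 fell, against 33.9% of listed genes called and lower. Gbp2b, next to Gbp2, stood at 41.6, 62.3 and 54.2 normalised counts in wild type and at 4.12, 3.72 and 4.29 in Senp8+/-, and fell 13.0-fold. Each Senp8+/- value is 4 reads, and the exact Poisson 95% interval of their level was 2.08 to 7.03. Gbp8 stood at 98.0, 78.1 and 156 in wild type and at 8.23, 7.44 and 15 in Senp8+/-, and fell 10.8-fold. Gbp6 fell 3.28-fold, from 208 ± 19.1 to 63.3 ± 13.0, but 64.5% of its 100-base windows occur in other genes, chiefly Gm43302, so its reads are uncertain. Gbp9 was not called, at 367 ± 141 in wild type and 168 ± 41.8 in Senp8+/-, and under the median-of-ratios rescaling its log2 difference turned from -1.08 to 0.19.

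The chromosome 5 genes Gbp4, Gbp8 and Gbp9 were each highest in wild-type replicate 3 and lowest in wild-type replicate 2. This order is not particular to the cluster. Gbp5 on chromosome 3 and Iigp1 and Gm4951 on chromosome 18 had it too, and Gbp6 of the cluster was lowest in wild-type replicate 1. Of all listed genes, 35.2% were highest in wild-type replicate 3 and 35.0% lowest in wild-type replicate 2, and the share with both was not computed. The annotated models of Gbp4, Gbp8 and Gbp9 overlap on the same strand. The overlap of exons is small, 61 bases or 0.814% of Gbp4. Gbp4 was 1.58 to 2.07 times Gbp8 in wild type and 0.929 to 2.13 times in Senp8+/-, ranges that overlap. Log2 differences in the cluster ran from -3.57 for Gbp4 and -3.32 for Gbp8 to -1.08 for Gbp9, and these were not tested against each other.

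Among the IRG genes, Tgtp1 and Tgtp2 lie in a run of 8 family genes on chromosome 11, of which 3 were listed, the third being Gm12185. Iigp1 lies with Gm4951 and F830016B08Rik on chromosome 18, of which 2 of 3 were listed. Of 14 IRG-type genes outside the 8, 3 were listed, each lower, and 1 fell. Gm4951 fell 2.21-fold, from 101 ± 19.3 to 45.8 ± 3.92 normalised counts, a difference that turned to 0.14 (log2) under the median-of-ratios rescaling. Gm12185 (37.8 ± 18.9 and 12.4 ± 5.33) and Irgc1 (27.6 ± 7.81 and 10.2 ± 2.37) were not called. The regulatory IRG genes Irgm1, Irgm2 and Igtp were not among the listed genes. For genes absent from the list it cannot be told whether they missed the p-value limit of 0.05, missed the 2-fold limit, went untested or are among genes not used here.

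Upstream of these genes, 0 of 11 genes of the interferon gamma receptor and its signalling, a list with Ifng, Ifngr1, Ifngr2, Jak1, Jak2 and Socs1, were listed. Of 8 other IRF genes 1 was listed and fell, Irf7, the regulator of type I interferon genes, from 4838 ± 539 to 2394 ± 164, with a log2 difference of -1.01 ± 0.23 (SE, limma) that turned to 0.26 under the median-of-ratios rescaling. Downstream in the known biology, 0 of 11 genes for conjugation of ATG8 proteins, which place IRGs and GBPs on vacuoles, and 0 of 9 inflammasome genes were listed. Since few genes were listed, 714 against 14694 in the authors' correction, nothing is read from a count of 0.

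Other genes that macrophages induce under interferon gamma were mostly listed, against 714 listed genes for 14694 in the authors' correction. Of 40 such genes 26 were listed, all lower in Senp8+/- (18 of 26 under the median-of-ratios rescaling), and 22 fell, with a median log2 difference of -1.67 over the 26 against -1.39 over all listed genes, of which 79.7% were lower and 33.9% called and lower. The list was drawn up with earlier results of these data known, so its direction is no independent evidence. The 4 with the smallest p-values were Ccl5, Cd74, Cxcl9 and Fgl2. Ccl5, a chemokine for T cells, fell 4.55-fold, Cd74, the MHC class II invariant chain, 3.19-fold, Cxcl9, a chemokine that draws activated T cells, 13.9-fold, and Fgl2 3.71-fold. Cxcl9 thus had a fold change close in size to that of Gbp4.

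Genes best known from type I interferon went both ways. Of 31 genes, 6 were listed, 2 of which fell, 3 rose and 1 (Mx2) was not called. Ly6e fell 2.98-fold and Ifitm3 2.30-fold, the latter turning to a log2 difference of 0.12 under the median-of-ratios rescaling. Ifit3b rose 3.09-fold, from 44.4 ± 9.22 to 137 ± 47.4, and Usp18, a protease that restrains type I interferon signalling, rose 2.14-fold, from 363 ± 80.03 to 776 ± 133. No direct test compared these genes with the GTPases.

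**Figure D4:**
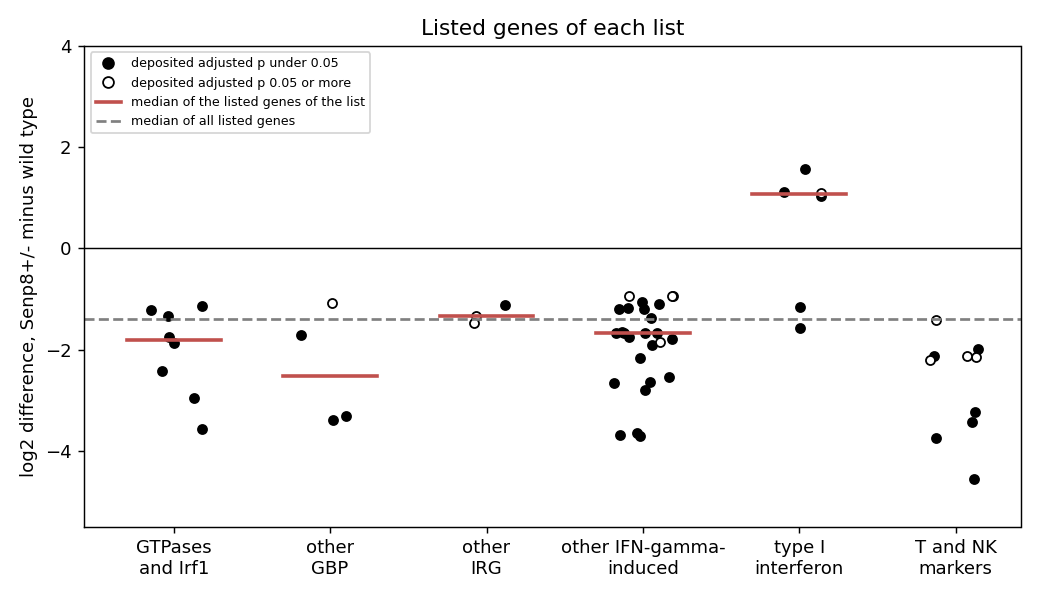
Each point is a listed gene, placed by list and by its log2 difference, Senp8+/- minus wild type, with filled points for genes with a deposited adjusted p under 0.05. All 8 GTPase and Irf1 points and all 26 other interferon gamma-induced genes lie below 0 at the deposited scaling, and 4 of the 6 type I interferon genes lie above it. Under the median-of-ratios rescaling 6 of 8 and 18 of 26 lie below 0, and 5 of the 6 type I genes above it. Gzma and Ncr1, among the T and NK markers, had 0 reads in Senp8+/-, so their fitted positions are not bounds, and no median is drawn for that list.

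By the chosen rule, the listed genes with the profile over the 6 libraries most like the median profile of the 8 were C1ra, H2-DMa, Cd38, Fgl2 and H2-Ab1. Their root mean square distances from it were 0.106, 0.152, 0.168, 0.182 and 0.193 log2 units. Of the 8 themselves, Gbp2 was at 0.0897, Tgtp2 at 0.142, Irf1 at 0.243, Gbp3 at 0.353, Gbp5 at 0.367, Iigp1 at 0.408, Tgtp1 at 0.990 and Gbp4 at 1.07. The median profile was made from these 8 genes, so their distances are not independent of it. C1ra, a complement protease gene, stood at 455 ± 78.7 normalised counts in wild type and 126 ± 24.1 in Senp8+/-. These distances are dominated by the genotype difference on which all listed genes were selected.

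Markers of cells that make interferon gamma moved with the same comparison. Of 22 T and NK cell markers 10 were listed, each lower in Senp8+/-, and 6 fell, against 79.7% of listed genes lower and 33.9% called and lower. All 10 stayed lower under the median-of-ratios rescaling, as genes with larger falls do, and nothing is read from that. Their summed level ran from 223 to 296 normalised counts in wild type and from 33.5 to 49.4 in Senp8+/-. Gzma and Ncr1, which define cytotoxic and NK cells, had 0 reads in each Senp8+/- library. Gzmb, a granzyme gene, fell to 2, 3 and 1 reads in Senp8+/- from 38, 49 and 31 reads in wild type, and Il2rb fell 4.21-fold, from 56.1 ± 10.5 to 13.3 ± 2.28 normalised counts. The part of these cells in the GTPase and Irf1 levels was not tested.

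Markers of other cell types also stood lower, and their counts stand against the same shares of listed genes, 79.7% lower and 33.9% called and lower. Of 8 dendritic cell markers 2 were listed and both fell, with a summed level of 545 to 786 in wild type and 177 to 276 in Senp8+/-. Of 10 neutrophil markers 3 were listed and 3 fell, with sums of 1187 to 1566 and 358 to 561, and Retnlg had 0 reads in Senp8+/-. Of 8 stromal and endothelial markers 7 were listed, each lower (3 of 7 under the median-of-ratios rescaling), and 3 fell, with sums of 704 to 1755 and 389 to 702. The listed B cell marker, Cd79b, was not called, at 34.8 ± 10.7 and 11.7 ± 0.881, and neither was C1qa or C1qc among the macrophage markers, whose sum of 10922 to 24342 in wild type overlapped that of 8169 to 11604 in Senp8+/-. Under the median-of-ratios rescaling the listed dendritic cell, neutrophil and B cell markers all stayed lower, and C1qa and C1qc turned higher. These signs follow from the size of each fall, so nothing is read from them. The part of these cells in the results was not tested either.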

How the data were processed

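The members and gene lists were chosen with earlier results of these data known. The tools named in the submitters' processing notes are featureCounts 1.5.0-p3 and HISAT2 2.0.5. Their settings, the strand, the genome build, the annotation and the testing tool were not given in the sources used here. The deposited signal per library is a read count divided by 1 size factor, since 100% of the values in each library were whole multiples of 1 step (tolerance 1e-06 of the read number). Beside it stand the log2 fold change of the authors and the authors' p-values, unadjusted and adjusted, whose ratio at the smallest p put the number of genes corrected for at 14694. Listed genes were 714, of which 685 had the same start and end in GENCODE M21, so positions are named GRCm38. Gene length is another deposited value.

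Groups came from the sample titles. Limma 3.58.1 (R 4.3.3) was fitted to log2(value + 1) over the listed genes with genotype as the only term. Its p-values, and those of edgeR 4.0.16 and DESeq2 1.42.0 on reads recovered from the signal, with its size factors, were Benjamini-Hochberg adjusted over 14694 genes at a threshold of 0.05. EdgeR's quasi-likelihood test called 180 listed genes. A table of selected genes cannot give a scaling or a dispersion trend over all genes, and it overstates effects. Levels at 0 reads use a floor of 3 reads. Alternatives were scaling, pseudocount, low-value filter, replicate block and leaving out each library. The genes named are the 8, up to 4 per list of the 14 lists with the smallest deposited p, and the 5 nearest profiles, defined as the smallest root mean square distance of centred log2 profiles among listed genes with a mean of at least the median of 26.8. Mx2 and the genes of the Y chromosome are outside this rule and were named after their values were seen. Columns of samples outside the series numbered 0.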

Additional observations from a re-analysis of the deposited data

How the results depend on the processing

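The median log2 difference of the 8 genes, -1.81, moved to -0.80 when libraries were rescaled to equal medians of the listed genes and to -0.54 when rescaled by the median of ratios, an alternative chosen after seeing the data, with medians over all listed genes of -0.44 and -0.18. The genes without overlap then numbered 5 and 3 in place of 8, against 48.2% and 41.0% of listed genes, and under the latter Gbp3 and Gbp5 turned to 0.13 and 0.041. The listed genes were selected and mostly lie lower in Senp8+/-, so they cannot give a scaling. With 1 library left out the median ran from -2.00 to -1.61 and the 8 genes stayed apart, as did 90.1% to 95.2% of listed genes. Of listed genes, 295 were called in the deposited table, 176 by limma, 180 by edgeR and 235 by DESeq2, and of the 8 genes 8, 5, 6 and 8. Limma with 1 library left out called 11 to 181 listed genes and 0 to 6 of the 8. The lowest counts were without wild-type replicate 1, and the cause was not tested. Correlations of same-numbered deviations were 0.01, 0.04 and -0.24, and not every library correlated best with its own number. They come from 3 libraries per genotype and selected genes, so they cannot tell whether the replicate numbers pair the libraries. With the replicate block limma called 174 listed genes and 5 of the 8, losing Irf1 and gaining Tgtp1, and the median stayed at -1.81. Pseudocounts of 0.5 and 5 gave -1.81 and -1.80. At under 50 reads per library Tgtp1 is limited by depth, as is Gbp4 in Senp8+/-.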

Other observations

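Gm12185 is an IRG-type gene that was listed but not called. Its annotated span overlaps that of Tgtp1 on the same strand, with 223 shared exon bases. The RefSeq start of Gm12185 lies inside its own annotated span and outside that of Tgtp1. Its promoter stretch resembles those of Tgtp1 and Tgtp2, with the same GAS letters and an ISRE-type match after them in capitals (RefSeq, GRCm38.p6).
Gm12185, chr11:48927208-48927287, minus strand: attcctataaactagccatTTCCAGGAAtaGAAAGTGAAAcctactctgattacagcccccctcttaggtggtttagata
Its values were 35.7, 20.1 and 57.7 normalised counts in wild-type replicates 1, 2 and 3 and 18.5, 10.2 and 8.57 in the Senp8+/- replicates. Unlike Tgtp2, it was highest in wild-type replicate 3. Of its 100-base windows 7.41% occur in other genes. Gbp2b, whose fall was close in size to that of Gbp4, also holds an ISRE-type match in its window, which begins 137 bases before the start.
Gbp2b, chr3:142594680-142594759, plus strand: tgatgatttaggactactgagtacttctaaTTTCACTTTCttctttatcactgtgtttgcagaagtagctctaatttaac
Gbp2, next to Gbp2b, holds the same 10 letters 59 bases before its start, and its level per kilobase in wild type was 3677 against 18.7 for Gbp2b.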
